A study of Mus musculus with 2 samples.

Results

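The genes described here encode the receptor chains through which T cells read interleukins, interferons and related cytokines. They were taken as every gene in the deposited table whose symbol has the form of an interleukin receptor, leaving out Il1rn, Il23r, Il1r1, Il7r, Il12rb1, Il12rb2, Il18r1 and Il18rap. The shared or related chains Il6st, Csf2ra, Csf2rb, Csf2rb2, Crlf2, Lifr, Osmr, Ifngr1, Ifngr2, Ifnar1 and Ifnar2 were added. The rule found 40 genes among the 17002 in the table by name alone, but it was set with values of these libraries already known. Of these, 29 reached 1 FPKM (fragments per kilobase of a transcript after scaling to library size) in at least 1 library, and 11 stayed below it in both. Il31ra, Il20rb and Csf2rb2 passed that minimum through 1 library only.

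The data comprised 2 RNA libraries of Th17 cells, helper T cells that make IL-17, from C57BL/6 mice. The first came from wild-type mice and the other from lncRNA-GM-/- mice, which lack a long non-coding RNA named lncRNA-GM. In both cases naive CD4+ T cells from spleen were kept for 3 days under Th17-polarising conditions. The labels give neither the cytokines used for polarisation nor how the lncRNA-GM allele was made. There was 1 library per genotype, so the spread between cultures is unknown and no test was run. All differences are between these 2 libraries and have no replicate check.

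Cytokine receptors of these families have no kinase of their own. A ligand draws chains together, the Janus kinases bound to those chains phosphorylate STAT proteins, and the STATs enter the nucleus. Receptors of the IL-1 and IL-17 families instead signal through adaptor proteins to NF-κB. Many chains are shared: the common gamma chain serves IL-2, IL-4, IL-7, IL-9, IL-15 and IL-21, and gp130 serves IL-6, IL-11, IL-27 and others. In T cells IL-6 and IL-21 favour the Th17 fate, while IL-2, IL-27 and interferons restrain it.

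Depth, worked out from the p-values in the authors' deposited table, was about 19.5 M fragments for the wild type and 19.1 M for the knockout. Of all 10998 genes with at least 1 FPKM in 1 library, the median log2 ratio (knockout over wild type, computed on FPKM + 1) was −0.03. The markers of the labelled cells were abundant in both libraries, with Cd4 at 174 FPKM in wild-type and 213 FPKM in knockout cells, and Thy1 at 840 and 906 FPKM. Markers of other cells were present too. The summed level of 6 CD8 T and NK cell markers was 341 FPKM in wild-type and 188 FPKM in knockout cells, and 4 of 4 measured were lower by at least 1.5-fold. For 8 macrophage and dendritic cell markers the sums were 32.3 and 70.8 FPKM, with 3 of 4 measured at least 1.5-fold higher. For 5 B cell markers they were 4.53 and 8.16 FPKM, with 1 of 3 measured higher, and for 5 regulatory T cell markers 40.9 and 85.8 FPKM, with 4 of 5 higher. For 8 mast cell, basophil and neutrophil markers the sums were 84.3 and 40.1 FPKM, with 3 of 6 measured lower and 1 higher. Most of each sum was Ly6g alone, at 71.6 and 30.3 FPKM, so the sums mainly follow that gene. The neutrophil markers S100a8 and S100a9 went the other way, with log2 ratios of 0.49 and 1.69. Of the stromal and endothelial markers, 1 of 3 measured was lower, and the sums were 30.7 and 20.9 FPKM. Most of these was Pecam1 alone, at 26.7 and 17.2 FPKM. Among all these markers only S100a9, in the wild type, and Fcer1a, in the knockout, were listed at 0. Of the markers past 1.5-fold, Klrb1c, Cpa3 and S100a9 reached 1 FPKM only in the library where each was higher. In bulk RNA, fewer cells of a type and less RNA per cell cannot be told apart.

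Il10ra and Il27ra were the only measured receptor chains past 1.5-fold on FPKM + 1, and both were higher in the knockout. Of the 29 measured chains, 17 (58.6%) lay within 1.2-fold, against 70.5% of all measured genes. The 2 higher genes make 6.90% of the measured chains, against 2.71% of all genes higher by that fold. Of the 29, 0 were at least 1.5-fold lower, against 5.19% of all genes. On the ratio of reads without a pseudocount 4 chains were higher by that fold, Csf2rb and Il1rl1 being the others, against 4.11% of all genes on the same ratio, and 0 were lower, against 7.68%. The 2 chains past 1.5-fold on FPKM + 1 in either direction compare with 7.90% of all genes. A log2 ratio above 0 was found for 21 of 29 (72.4%), against 44.9% of all genes. Csf2rb2 and Il20rb are among the 21 and reached 1 FPKM only in the knockout, where they were higher. The median log2 ratio of the chains was 0.09. The rule leaves out 7 other receptor chains, of which 6 were at least 1.5-fold lower. The counts by direction and the median therefore depend in part on that choice.

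The log2 ratios ran from −0.46 for Il17ra to 0.92 for Il10ra. Intervals given below are 95% exact (Clopper-Pearson) intervals on a ratio of reads, with no pseudocount, and cover counting error only. Those reads were worked out from the FPKM values with 1 scale per chain for both libraries. Their ratio is therefore the FPKM ratio and not a separate count. By these intervals, 16 chains were higher and 5 lower in the knockout beyond counting error, and the intervals of the other 8 held 0. The 8 include Csf2ra, whose p-value in the authors' deposited table, 2.41e-05, does separate the libraries. Csf2rb2, among the 16, and Il31ra, among the 5, reached 1 FPKM only in the library where each was higher. Over all 10826 measured genes with an annotated transcript, the same intervals lay above 0 for 24.6% and below 0 for 31.8%, or without 0 for 56.3%. The 16 include Il4ra and Il6ra, whose reads were set from transcript length, while their p-values in the authors' deposited table, 0.557 and 0.0922, do not separate the libraries. Such an interval does not hold the spread between cultures, which was not measured.

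**Figure D1:**
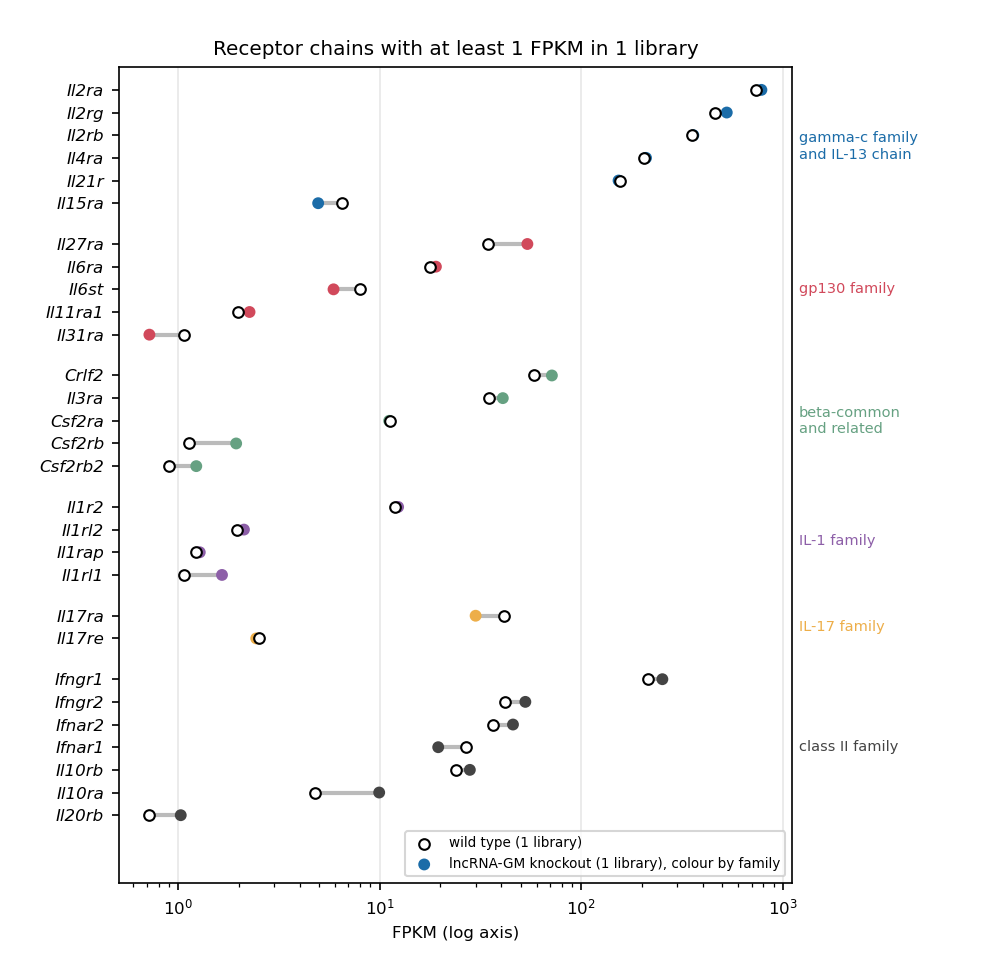
FPKM (log axis) of the 29 receptor chains with at least 1 FPKM in 1 library, by family. Open circles are the wild-type library and filled circles the lncRNA-GM knockout library, each a single value with no error bar. The circles overlap for most abundant chains, while Il10ra and Il27ra are shifted to the right and Il17ra, Ifnar1 and Il6st to the left in the knockout. Low chains are shifted too, among them Csf2rb and Il1rl1 to the right and Il31ra to the left.

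The chains of the IL-2 receptor were the most abundant of all. Il2ra, which encodes the alpha chain CD25 that raises the affinity for IL-2, was at 739 FPKM in wild-type and 783 FPKM in knockout cells. Il2rg, the common gamma chain, was at 463 and 527 FPKM, and Il2rb, the beta chain shared with the IL-15 receptor, at 353 and 360 FPKM. These 3 chains made up 62.1% of the summed FPKM of all 40 genes in the wild type and 61.6% in the knockout. The 3 values were near-level between the libraries, the largest gap being that of Il2rg, at 0.19 in log2 (interval 0.15 to 0.22). Il2ra had a log2 ratio of 0.08 and Il2rb of 0.03. At this depth, with about 64011 wild-type reads on Il2ra, even such small gaps exceeded counting error.

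Of the private chains described here that pair with the common gamma chain or share its ligands, the 3 that reached 1 FPKM were level or slightly lower. Il4ra, the IL-4 receptor alpha chain, was at 205 FPKM in wild-type and 210 FPKM in knockout cells. Il21r, the receptor for the autocrine Th17 cytokine IL-21, was at 156 and 153 FPKM, with an interval from −0.07 to 0.03. Il21 itself was at 39.9 and 75.5 FPKM, so the ligand gene differed between the libraries and the gene of its private chain did not beyond counting error. Il15ra, which presents IL-15 to neighbouring cells, was lower, at 6.52 and 4.95 FPKM. Its log2 ratio was −0.34, and its interval, from −0.76 to −0.03, rested on about 151 and 113 reads.

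Il9r, the IL-9 receptor, and Il13ra1, which forms the type II IL-4 receptor with Il4ra, stayed below 1 FPKM in both libraries. Il9r was at 0.33 FPKM in wild-type and 0.77 FPKM in knockout cells, on about 30 and 70 reads. Il13ra1 was at 0.40 and 0.10 FPKM, on about 29 and 7 reads. On the ratio of reads Il9r was 2.37-fold higher (log2 interval 0.61 to 1.91) and Il13ra1 4.08-fold lower (log2 interval −3.46 to −0.81) in the knockout. The pseudocount of 1 FPKM hides differences at this level, where the log2 ratios on FPKM + 1 were 0.41 and −0.35.

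In the gp130 family the ligand-binding chain for IL-27 and the shared signalling chain differed in opposite directions. Il27ra, whose ligand restrains Th17 differentiation, was at 34.3 FPKM in wild-type and 54.0 FPKM in knockout cells, 1.56-fold higher. Il6st, which encodes gp130, was at 8.01 and 5.90 FPKM, 1.31-fold lower. Il6ra, the IL-6 binding chain, was at 17.7 and 19 FPKM. Il27ra was thus the most abundant of the family in both libraries, and Il6st the lowest of these 3 chains.

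The log2 ratio of Il27ra was 0.64, on about 1834 and 2843 reads, with an interval from 0.57 to 0.74 that begins just under the 1.5-fold line at 0.585. That of Il6st was −0.38 (interval −0.59 to −0.29). Il27ra, on chromosome 8 from 84030286 to 84042600 of GRCm38.p6, shares exon sequence with Palm3 on the opposite strand. Palm3 was at 2.29 and 3.95 FPKM. Since the strandedness of the libraries is not given in the sources used here, reads of the overlap cannot be assigned, although Palm3 lay far below Il27ra in both. Il11ra1, the IL-11 receptor, was at 1.98 and 2.26 FPKM and Il31ra, the IL-31 receptor, at 1.07 and 0.72 FPKM. Their intervals ran from −0.22 to 0.62 and from −1.05 to −0.06. The sum of Il11ra1 and its near-identical copy Il11ra2, listed at 0.01 and 0 FPKM, was 1.99 and 2.26 FPKM. Lifr and Osmr, the chains for leukaemia inhibitory factor and oncostatin M, were at 0.68 and 0.77 FPKM and at 0.04 and 0.03 FPKM.

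The receptors of the beta-common group, which serve IL-3, IL-5 and GM-CSF, and the related chain Crlf2 were level or higher in the knockout. Crlf2, which binds thymic stromal lymphopoietin and pairs with the IL-7 receptor chain instead of the beta-common chain, was the most abundant, at 58.2 FPKM in wild-type and 71.5 FPKM in knockout cells. Il3ra, the IL-3 receptor alpha chain, was at 34.9 and 40.8 FPKM. The log2 ratios were 0.29 for Crlf2 (interval 0.18 to 0.41) and 0.22 for Il3ra (interval 0.13 to 0.33). Csf2rb, the shared beta chain, was at 1.13 and 1.94 FPKM and its mouse-specific copy Csf2rb2, which serves IL-3 alone, at 0.90 and 1.23 FPKM. Both beta chains were low, and both were higher in the knockout.

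Csf2rb and Csf2rb2 lie next to each other on chromosome 15, and their transcripts share 95.1% of bases over 3101 bases, so reads can be split between them. Summed, the pair was at 2.03 and 3.17 FPKM, with a log2 ratio of 0.46 on FPKM + 1 and an interval of the read ratio from 0.34 to 0.89. Csf2rb alone had a log2 ratio of 0.46, and its read ratio was 1.71-fold. Csf2ra, the GM-CSF binding chain, was at 11.3 and 11.1 FPKM. Its p-value in the authors' deposited table was 2.41e-05, whereas equal reads per FPKM in both libraries would give 0.81. That p-value corresponds to a log2 read ratio of 0.39 in either direction, so the level of Csf2ra may not be equal in reads. The p-value compares 2 libraries, not the genotypes. Il5ra, the IL-5 binding chain, was at 0.98 and 0.96 FPKM.

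In the IL-1 receptor family no measured chain was 1.5-fold apart on FPKM + 1. Il1r2, a decoy receptor that binds IL-1 without signalling, was at 11.9 FPKM in wild-type and 12.3 FPKM in knockout cells. Il1rap, the accessory chain that every signalling IL-1, IL-33 and IL-36 receptor needs, was at 1.23 and 1.28 FPKM, and Il1rl2, the IL-36 receptor, at 1.96 and 2.12 FPKM. The intervals of these 3 genes held 0. Il1rl1, which encodes the IL-33 receptor ST2 found on Th2 and regulatory T cells, was at 1.07 and 1.65 FPKM. Its interval, on about 101 and 153 reads, ran from 0.25 to 1.0. Regulatory T cell markers were higher in the same library (Foxp3 at 6.08 and 15.6 FPKM), and their part in the level of Il1rl1 was not tested. The signalling IL-1 receptor Il1r1, which the rule leaves out, was at 7.80 and 3.80 FPKM. The decoy was thus the more abundant of the pair in both libraries. Il1rapl2, a member better known from neurons, was at 0.09 and 0.02 FPKM.

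Il17ra, the chain that IL-17A, IL-17F, IL-17C and IL-25 share, was the measured chain with the lowest log2 ratio on FPKM + 1. On the ratio of reads Il31ra, at −0.55, was lower than Il17ra, at −0.47. Il17ra was at 41.5 FPKM in wild-type and 29.9 FPKM in knockout cells, 1.37-fold lower, with a log2 ratio of −0.46 (interval −0.55 to −0.40). That interval rests on reads solved from the p-value in the authors' deposited table. With reads taken from transcript length instead, that p-value corresponds to a smaller log2 read ratio, 0.34 in size. Worked out in the same way, the sizes of some other chains were also smaller than their read ratios. Among them were Ifnar2 at 0.22, Ifngr2 at 0.24, Ifnar1 at 0.41, Il6st at 0.35 and Il15ra at 0.28. For others, such as Il10ra at 1.06, the size was not smaller. Il17re, which binds IL-17C, was at 2.51 and 2.44 FPKM. Il17rc, the partner of Il17ra for IL-17A and IL-17F, was below 1 FPKM, at 0.41 and 0.60 FPKM, as were Il17rb, at 0.22 and 0.43 FPKM, and Il17rd, at 0.14 and 0.09 FPKM. The intervals of these 4 genes held 0. The ligand genes Il17a and Il17f were lower as well, at 392 and 178 FPKM and at 1056 and 382 FPKM.

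The class II receptors, which bind interferons and the IL-10 family, held Il10ra, the measured chain with the largest ratio. Il10ra, the ligand-binding chain for the anti-inflammatory cytokine IL-10, was at 4.79 FPKM in wild-type and 9.94 FPKM in knockout cells. It was 1.89-fold higher on FPKM + 1, and 96.6% of all measured genes differed by less. Il10rb, the chain shared by IL-10, IL-22 and interferon-lambda receptors, was at 24.0 and 28 FPKM. Il10 itself ran the other way, at 84.1 and 57.6 FPKM.

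The log2 ratio of Il10ra was 0.92, and its read ratio, on about 329 and 671 reads, had an interval from 0.86 to 1.25. The gene lies on chromosome 9 from 45253837 to 45269149 of GRCm38.p6, and neither an overlapping exon nor a near-identical transcript was found for it. Macrophages, dendritic cells and B cells are also known to carry the IL-10 receptor, and markers of these cells were higher in the same library, with Cd74 at 15.4 and 39.4 FPKM and Cd79b at 1.1 and 2.36 FPKM. Their part in the level of Il10ra was not tested. Other markers of these cells were low in both libraries, among them Csf1r at 0.09 and 0.26 FPKM and Adgre1 at 0.06 and 0.08 FPKM.

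Of the interferon receptor chains, 3 were higher and 1 lower in the knockout. Ifngr1, the binding chain for interferon-gamma, was at 213 FPKM in wild-type and 253 FPKM in knockout cells, and Ifngr2, its signalling partner, at 42.0 and 52.8 FPKM. Ifnar2, the high-affinity binding chain for type I interferon, was at 36.4 and 45.8 FPKM. Ifnar1, its partner, was at 26.8 and 19.5 FPKM, 1.36-fold lower. The Ifng gene was at 26.8 and 5.51 FPKM, so the ligand gene was lower where both chains of its receptor were higher.

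The log2 ratios were 0.24 for Ifngr1 (interval 0.20 to 0.29), 0.32 for Ifngr2 (interval 0.24 to 0.42), 0.33 for Ifnar2 (interval 0.21 to 0.46) and −0.44 for Ifnar1 (interval −0.57 to −0.35). Il20rb, a chain for IL-20 and IL-24, was at 0.72 and 1.03 FPKM with an interval from −0.14 to 1.2. Il22ra1, the IL-22 receptor of epithelial cells, was at 0.04 and 0.05 FPKM, which is about 2 reads in each library.

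**Figure D2:**
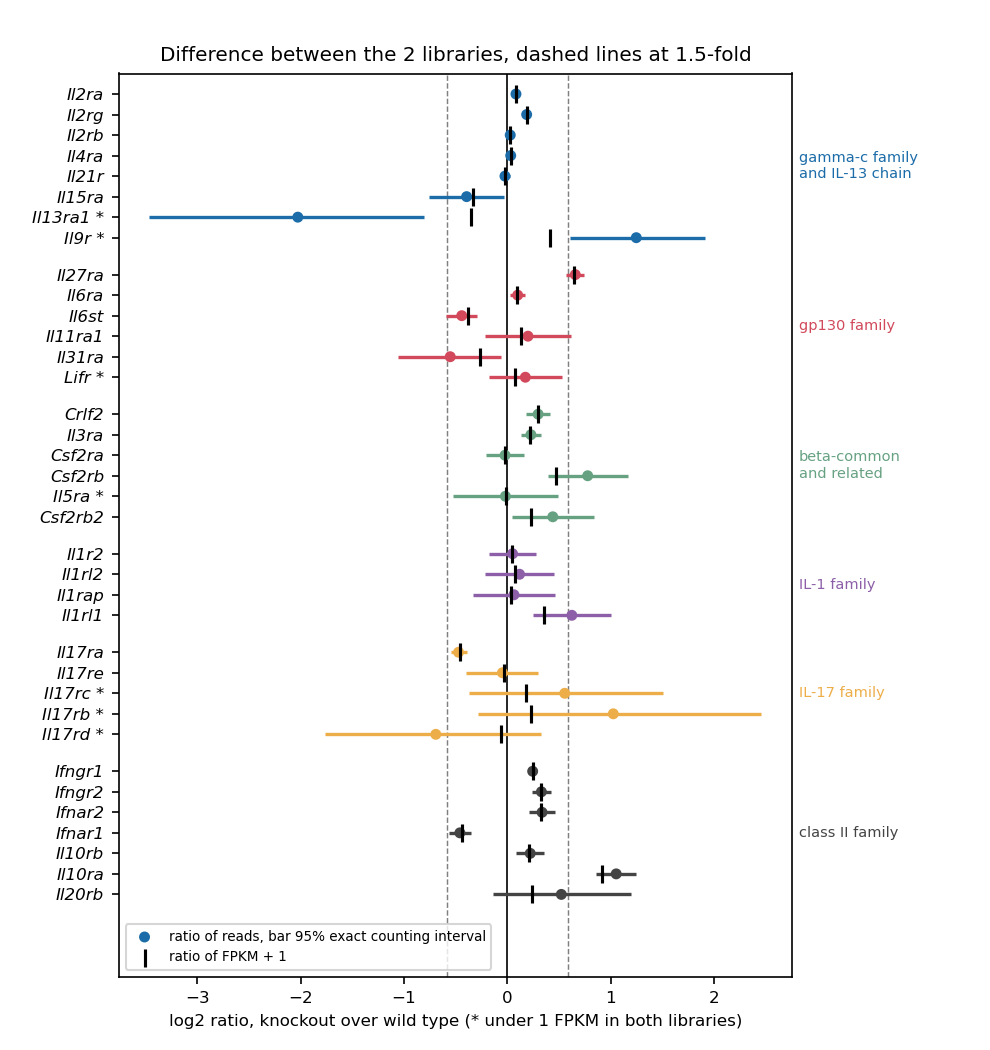
Log2 ratios, knockout over wild type, of the 36 receptor chains with at least 20 reads in all. Dots are the ratio of reads worked out from the FPKM values, with bars for the 95% exact counting interval. Black ticks are the ratio of FPKM + 1, and dashed lines mark 1.5-fold. The bars of Il10ra and Il27ra lie to the right of 0, those of Il17ra, Ifnar1 and Il6st to the left, and the widest belong to chains under 1 FPKM.

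Ifnar2, Il10rb, Ifnar1 and Ifngr2 are neighbours, within 191 kilobases of chromosome 16. From the first to the last along the chromosome, their log2 ratios were 0.33, 0.21, −0.44 and 0.32, so Ifnar1 differed in direction from the genes on either side of it. The bases just before the annotated start of 3 of these neighbours are given 5′ to 3′ from the RefSeq promoter table (GRCm38.p6, plus strand). Il10rb has no entry there. Any part of these sequences in the direction of the ratios was not tested. The Ifnar2 window is chr16:91372533-91372782, the Ifnar1 window is chr16:91484965-91485031 and the Ifngr2 window is chr16:91546809-91547058. The Ifnar1 window is shorter because transcribed bases were left out. Capitals mark the match to the STAT-binding motif TTCNNNGAA.
Ifnar2: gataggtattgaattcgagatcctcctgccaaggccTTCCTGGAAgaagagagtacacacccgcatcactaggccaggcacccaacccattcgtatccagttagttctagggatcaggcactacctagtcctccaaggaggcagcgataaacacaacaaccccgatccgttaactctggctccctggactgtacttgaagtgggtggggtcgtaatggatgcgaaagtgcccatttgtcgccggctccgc
Ifnar1: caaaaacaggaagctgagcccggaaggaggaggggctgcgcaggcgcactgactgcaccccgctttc
Ifngr2: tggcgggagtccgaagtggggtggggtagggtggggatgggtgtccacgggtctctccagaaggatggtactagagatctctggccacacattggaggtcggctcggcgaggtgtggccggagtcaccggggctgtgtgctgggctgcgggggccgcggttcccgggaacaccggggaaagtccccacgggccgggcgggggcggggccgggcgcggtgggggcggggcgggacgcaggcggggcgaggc

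Searched in the 250 bases before each start in that table, on both strands, TTCNNNGAA (which reads alike on both) was found for Ifnar2, beginning 214 bases before the start, and not for Ifngr2. No match was found for Ifnar1 either, but there the table's start lies inside the annotated gene, so 183 of the bases searched are not upstream of it and only the 67 bases shown are. Of all 27025 promoters of this length, 7.18% hold it, and among the 23 measured chains with an entry 4 do: Csf2rb2, Ifnar2, Il1r2 and Il31ra. The forkhead motif GTAAACA, to which Foxo factors bind, was found for Il21r alone among the 23, against 3.09% of all promoters. A match describes the letters and is not a site at which a factor was measured.

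Among other neighbouring members, Il6st and Il31ra, 117 kilobases from end to end on chromosome 13, were both lower, with log2 ratios of −0.38 and −0.27. Il4ra and Il21r, within 82.1 kilobases of chromosome 7, had log2 ratios of 0.03 and −0.02. On chromosome 1, Il1r2, Il1rl2 and Il1rl1 had log2 ratios of 0.05, 0.08 and 0.36. On chromosome 15, Csf2rb2, Csf2rb and Il2rb had log2 ratios of 0.23, 0.46 and 0.03. Il17re and Il17rc, on chromosome 6, had log2 ratios of −0.03 and 0.18.

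Because most of these receptors work as pairs of chains, the level of 1 chain was set against its partner's in each library, on FPKM, which is per transcript length. Of 23 pairs, 16 had both chains measured. In 22 of 23 the same chain was the less abundant in both libraries. For chains that lie far apart this was bound to be so, as with Il9r at 0.0007 of Il2rg in the wild type. The exception among the 23 was the IL-33 receptor. There Il1rl1 was below Il1rap in the wild type, at a ratio of 0.87, but above it in the knockout, at 1.29. The counting interval of that change, from 0.03 to 1.09 in log2, barely left 0.

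The IL-27 receptor differed most among the measured pairs. Il27ra was 4.28 times the level of Il6st in the wild type and 9.16 times in the knockout, a log2 change of 1.1 (interval of the read ratio 0.93 to 1.27). For the IL-6 receptor, Il6ra over Il6st went from 2.21 to 3.22. The smaller size given above for Il6st applies to both of these pairs. For the IL-10 receptor, Il10ra stood at 0.20 of the level of Il10rb in wild-type cells and at 0.36 in knockout cells, a log2 change of 0.83 (interval 0.60 to 1.06). Il10ra stayed the less abundant chain in both libraries.

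The type I interferon receptor differed in balance by a log2 of 0.79 (interval 0.63 to 0.96), from 1.35 to 2.35 Ifnar2 per Ifnar1. The smaller sizes given above for Ifnar2 and Ifnar1 apply to this pair. For the interferon-gamma receptor the interval of the change held 0, with 5.07 Ifngr1 per Ifngr2 in the wild type and 4.78 in the knockout (log2 interval −0.19 to 0.02). Il2rb, Il4ra and Il21r each stood slightly lower against Il2rg in the knockout, by log2 changes of −0.16, −0.15 and −0.21. The GM-CSF pair had 10.01 Csf2ra per Csf2rb in the wild type and 5.74 in the knockout, with the limit given for Csf2ra above.

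**Figure D3:**
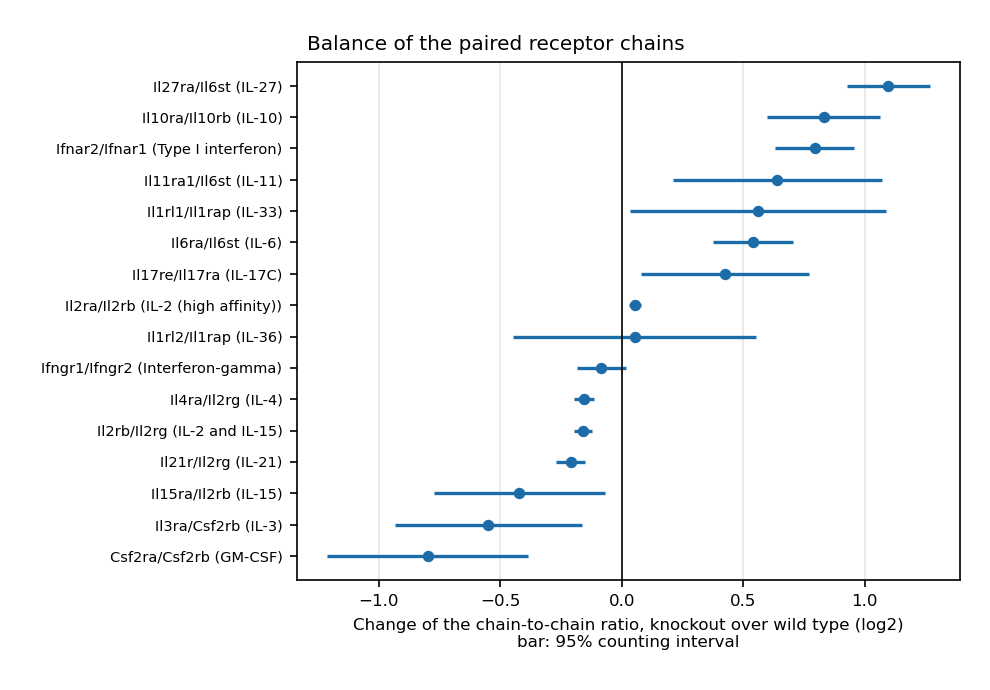
Change, knockout over wild type, of the FPKM of 1 receptor chain over that of its partner, for the 16 pairs with both chains measured. Dots are log2 changes of the read ratio and bars are 95% counting intervals (normal approximation), which hold no spread between cultures. Il27ra/Il6st, Il10ra/Il10rb and Ifnar2/Ifnar1 lie farthest to the right and Csf2ra/Csf2rb farthest to the left.

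The interleukin receptor chains that the rule leaves out had lower ratios. Of those 7 genes, 6 were lower by at least 1.5-fold in the knockout, and their median log2 ratio was −0.99. The exception was Il12rb1, at 103 and 108 FPKM. Among the 29 measured chains described here 0 were lower by that margin. With 1 library per genotype the difference between the groups of genes was not tested, and both were chosen with values of these libraries already known.

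**Figure D4:**
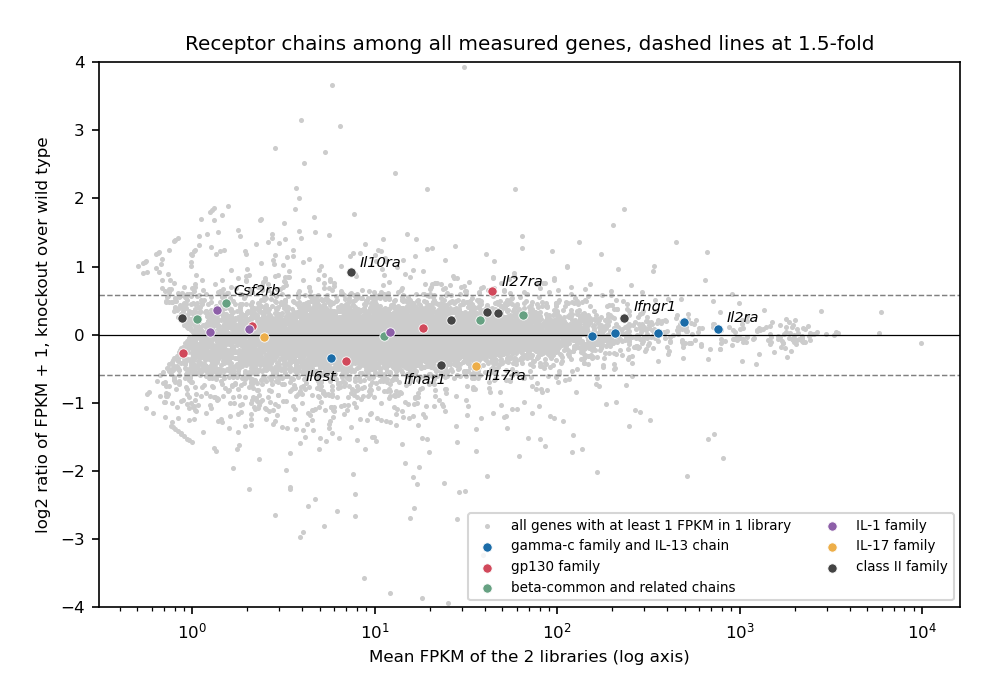
Log2 ratio of FPKM + 1 (knockout against wild type) plotted against the mean FPKM of the 2 libraries (log axis). Grey dots are the 10998 genes with at least 1 FPKM in 1 library (5 lie outside the axis, beyond 4 in size), coloured dots the 29 receptor chains by family, and dashed lines mark 1.5-fold. Il10ra and Il27ra lie above the upper dashed line and the other chains between the lines.

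Among the ligand genes of these receptors, several passed 1.5-fold. Of 45 listed ligand genes 21 were measured, of which 5 were higher and 4 lower by at least 1.5-fold, with a median log2 ratio of 0.19. Against them stand 2.71% and 5.19% of all genes. Il4, among the 5, was listed at 0 and 1.59 FPKM and so reached 1 FPKM only in the knockout. The highest were Il1b, a ligand of Il1r2 and Il1rap, at 1.5 FPKM in wild-type and 6.19 FPKM in knockout cells, and Il13, at 1.68 and 6.19 FPKM. The lowest were Ifng and Il17f. Macrophages are known to make Il1b, and the part of such cells in its level was not tested. Il27, which encodes the p28 subunit of IL-27, was listed at 0 and 0.23 FPKM, and Ebi3, its other subunit, was at 21.9 and 31.2 FPKM.

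Of 36 genes that act below the receptors, all measured, 3 were higher and 2 lower by at least 1.5-fold, against 2.71% and 5.19% of all genes, with a median log2 ratio of −0.02. Irak3, an inhibitor of IL-1 receptor signalling, was the highest, at 0.55 FPKM in wild-type and 1.71 FPKM in knockout cells. Irak3 reached 1 FPKM only in the knockout. Socs2 and Cish, feedback inhibitors known to be induced through STAT5 by IL-2, followed at 32.4 and 51.4 FPKM and at 155 and 241 FPKM. Socs1, of the same family, was at 158 and 238 FPKM, just under 1.5-fold. The lowest was Usp18, which binds Ifnar2 and dampens interferon signalling, at 6.67 and 2.55 FPKM. The kinase genes Jak1, Jak2 and Tyk2 were level, with log2 ratios of −0.07, −0.04 and −0.02, while Jak3, which binds the common gamma chain, was at 169 and 229 FPKM.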

How the data were processed

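Per the labels' protocols, TRIzol extracts of total RNA were sequenced on the Illumina HiSeq platform. Bowtie2 and RSEM with GRCm38.p6 are named in the submitters' processing notes. Versions, read filters and strandedness are not given in the sources used here. Both expression columns the authors deposited were read as FPKM from their sums (517664 and 514343), since the header says only expression. Their deposited log2 ratio has the knockout as numerator, per the file headers, and the deposited FDR was treated as a score and not used. No test is named for the deposited p-value.

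Log2 ratios used FPKM + 1 over genes reaching 1 FPKM in a library, and a fold of 1.5. With 1 library per group no test was run. Members and lists were chosen with earlier results of these data known. Named were all members, and of the ligand and signalling lists the 2 highest and 2 lowest past 1.5-fold; others were named after their values were seen. Some listed genes were left out of the text.

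The deposited p-value of genes listed at 0 in the knockout follows the Audic-Claverie comparison of 2 libraries with 50.4% of reads in the wild type. Solved that way, 941 of 942 genes listed at 0 in 1 library with under 30 reads gave whole reads within 0.05. Depth came from 182 genes annotated with a single transcript, 1500 bases or longer (quartiles 18.3 and 19.7 M). Reads were solved for 22 of 29 measured chains, and for 7, where FPKM rounding or a result over 2.5-fold off the transcript length left no solution, taken from the longest GENCODE M21 transcript. Without molecular identifiers, reads need not be separate molecules. Copies were searched with BLAST 2.17.0 at 95% identity over 50% of a transcript. Positions came from RefSeq (GRCm38.p6), which held 99.3% of gene IDs, and promoters from its table, which held 34 of 40 members. Steps were tested on simulated data. Computation used scipy 1.17.1, pandas 2.3.3, matplotlib 3.10.9 and numpy 2.4.6 in Python 3.11.15.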

Additional observations from a re-analysis of the deposited data

How the results depend on the processing

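Under 9 alternatives (pseudocounts of 0.1 and 5, no minimum or a minimum of 5 FPKM, 2 rescalings, the authors' deposited log2 ratio, near-identical copies summed, and the ratio of reconstructed reads, chosen after seeing the data), the median of the chains ran from 0.08 to 0.12, and 0 chains were at least 1.5-fold lower under each. The count at least 1.5-fold higher was 4 with the authors' deposited log2 ratio and 4 with reconstructed reads, where Csf2rb and Il1rl1 joined Il10ra and Il27ra, and 3 with a pseudocount of 0.1. All 29 measured chains kept the sign of their log2 ratio in every alternative that held them, but most alternatives could not change a sign. The pseudocounts, minima, deposited log2 ratio and reconstructed reads all start from the same FPKM values of a chain. The 2 rescalings moved the log2 ratios by only about 0.009 and 0.018. Il10ra ran from 0.61, with a pseudocount of 5, to 1.05, and Il27ra from 0.59 to 0.66, so Il27ra stays close to the 1.5-fold line. No paired analysis was possible because each genotype has 1 library. For chains under 1 FPKM the reads, not the FPKM values, set what can be seen.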
